A study of Homo sapiens with 16 samples.

Results

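The distal CTCF sites described here had a ChIP-seq peak in MCF10A cells and none in the same cells after HRAS transformation. They were chosen by the peak calls themselves. Joining peaks of the 4 CTCF lists that shared 1 bp or more gave 29064 sites, and a site was kept when 1 or both MCF10A lists and no G12V list had a peak there, and when it did not overlap the promoter of a protein-coding gene (1000 bp upstream to 500 bp downstream of a transcription start site, TSS). This left 937 sites of 24920 distal sites, after 178 sites at promoters were set aside. Of the 17234 distal sites with a peak in an MCF10A list, the 937 made up 5.44%.

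MCF10A is a line of human breast epithelial cells that grow without limit in culture but do not form tumours. The cells named G12V are MCF10A cells that received HRAS with valine in place of glycine at residue 12 by lentivirus, with a GFP vector to follow transduction, and that were selected with hygromycin. Whether they descend from 1 clone is not stated in the sources used here, and a vector-only control was not analysed here. Each cell type had 2 CTCF libraries, biological replicates per the study's methods, each with an input library, and 2 p53 libraries from Nutlin-treated cells.

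CTCF is a zinc-finger protein that recognises a long, GC-rich DNA motif. It marks insulators and the borders of chromatin domains, where it halts the cohesin ring that extrudes DNA loops. Binding at many of its sites is shared between cell types, and methylation of CpG dinucleotides within the motif can hinder it. A distal site is 1 that lies away from promoters, where enhancers, insulators and loop anchors are found.

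The sequences of a few sites show what lay under the strongest peaks. The first 3 belong to sites called in both MCF10A lists, the fourth to a site of replicate 1 alone and the last 2 to sites of replicate 2 alone. They are, within each set and leaving out 2 stronger sites that are not reported here, the leading sites whose window held a match to the CTCF core motif with at most 1 mismatch, read from GRCh37 (hg19) in the direction of the match. Capitals mark the match, and each site is named by the protein-coding gene with the nearest TSS.
ZNF469, chr16:88321040-88321100, plus strand, 1 mismatch: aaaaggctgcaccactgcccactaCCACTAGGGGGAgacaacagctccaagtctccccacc
DCDC2C, chr2:4402352-4402412, plus strand, no mismatch: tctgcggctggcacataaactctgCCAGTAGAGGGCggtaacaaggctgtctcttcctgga
CMPK2, chr2:6493204-6493264, plus strand, 1 mismatch: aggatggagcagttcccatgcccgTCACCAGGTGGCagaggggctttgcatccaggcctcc
NFE2L3, chr7:25935124-25935184, minus strand, no mismatch: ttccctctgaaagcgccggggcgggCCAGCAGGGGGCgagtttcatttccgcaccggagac
KAZN, chr1:14933290-14933350, plus strand, 1 mismatch: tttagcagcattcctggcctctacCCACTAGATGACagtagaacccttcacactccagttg
USP2, chr11:119242618-119242678, minus strand, 1 mismatch: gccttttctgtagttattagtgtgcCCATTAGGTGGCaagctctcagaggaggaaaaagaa

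Most MCF10A-only sites had no such match. The site with the smallest sum of ranks over both lists, in an intron of PEX14, is the clearest case. Its best match had 2 mismatches, and the 150 bp around its summit held 13 CpG dinucleotides, in capitals here, and were 64.7% G or C.
PEX14, chr1:10590444-10590593, plus strand: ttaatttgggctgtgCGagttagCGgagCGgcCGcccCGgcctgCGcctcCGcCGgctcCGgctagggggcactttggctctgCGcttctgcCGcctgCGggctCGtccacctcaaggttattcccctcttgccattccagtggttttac

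The number of sites depended on which lists were required or left out. Of the 937 sites, 824 had a peak in MCF10A replicate 2 alone, 52 in replicate 1 alone and 61 in both. The lists differed in length, with 11346 and 20136 peaks for MCF10A replicates 1 and 2 and 12004 and 27678 peaks for G12V replicates 1 and 2. The depth at which the peaks were called, recovered from the lists, spanned 10.7 to 13.5 M reads (1 M is 1e6) and did not follow the lengths. Without MCF10A replicate 2 there were 113 sites, and without G12V replicate 2 there were 8337. With every list cut to the 11346 strongest peaks, 2185 sites met the rule. The mirror image of the rule gave 7686 distal sites with a peak in G12V alone, of which 6637 were in replicate 2 alone and 866 in both.

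The sites were weak peaks within their lists. These values belong to the calls that chose the sites and are given as a description, with no test. In MCF10A replicate 1 the fold enrichment (summit pileup over local background) of the 113 sites had a median of 5.80 and ran from 3.44 to 12.5, against a median of 7.10 for the 9237 other distal sites of that list. In replicate 2 the median of the 885 sites was 6.12, with a range of 3.05 to 19.03, against 9.06 for the 16008 other distal sites. The median site ranked above only 15.5% of the peaks of replicate 1 and 11.8% of those of replicate 2. Both ranges overlapped those of the other sites, and the shift was one of the bulk of the sites.

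The read counts behind these peaks were small. The ChIP reads over each summit could be solved from the fold and the p-value of the peak. A median of 19 reads lay over the summits in replicate 1 (95% Poisson interval of a count of that size, 11.4 to 29.7) and 15 in replicate 2 (8.40 to 24.7). These intervals cover counting error only. The other distal sites had a median of 28 reads in each of the 2 lists. In G12V, the weakest distal peak of either list rested on 8 reads and the median peak on 20 reads in replicate 1 and 32 in replicate 2. Of the 885 sites called in MCF10A replicate 2, 712 (80.5%) had fewer reads than the median G12V replicate 1 peak and 872 (98.5%) fewer than the median G12V replicate 2 peak. Of the 113 sites called in replicate 1, 65 (57.5%) and 110 (97.3%) did. MCF10A replicate 1 had the deepest ChIP library, so its counts do not compare directly with those of the other lists. A site without a G12V peak is one where no call was made, and the lists do not measure whether CTCF was absent there.

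The share of MCF10A-only sites rose toward the weak end of both lists. Ranked by −log10 p into quartiles, they made up 0.133%, 0.427%, 1.02% and 3.18% of the distal sites of replicate 1 from the strongest quartile to the weakest. In replicate 2 the shares were 0.166%, 0.833%, 3.90% and 15.9%. The strongest quartiles held 3 and 7 of the sites, and the weakest 76 and 679. The same order held in the G12V lists for the G12V-only sites, at 74.0% of the weakest and 1.77% of the strongest quartile of replicate 2.

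**Figure D1:**
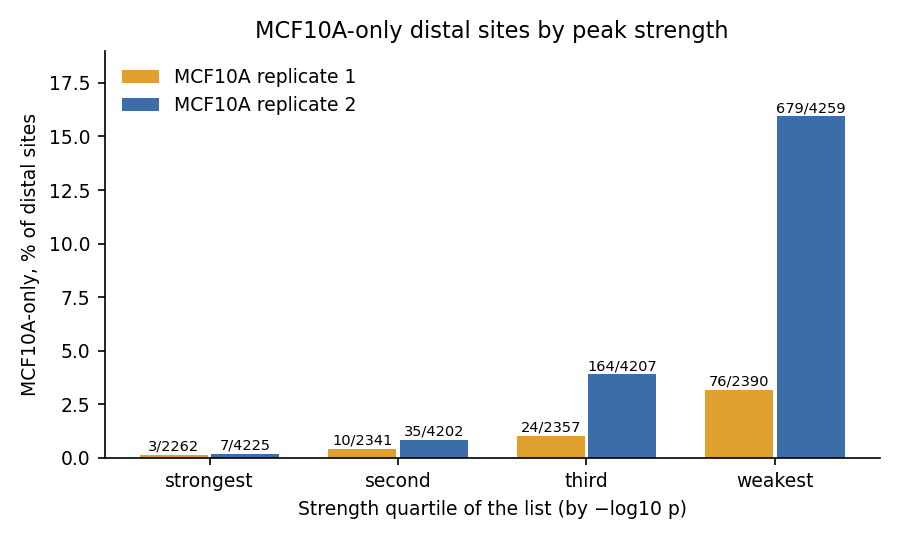
Share of the distal sites in each strength quartile of the 2 MCF10A lists that were MCF10A-only (y axis, %), with the number of such sites over all distal sites of the quartile above each bar. The weakest quartile of replicate 2 alone held 679 sites.

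The 61 sites called in both MCF10A lists were the best measured. Their fold enrichment had a median of 6.22 in replicate 1 and 8.22 in replicate 2, and their summit reads a median of 21 and 22. The PEX14 site, chr1:10590305-10590708, in an intron 5426 bp from the nearest PEX14 TSS, had 35 and 59 reads in replicates 1 and 2, a fold of 9.39 and 19.03 and ranks of 2120 and 316. PEX14 is part of the docking complex through which proteins enter peroxisomes. No G12V peak lay within 15530 bp of it, and it had the most reads of the 61 sites in both replicates.

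Next by rank sum was an intergenic site, chr16:88320861-88321253, with 34 and 45 reads and a fold of 11.5 and 15.6. It lay 128315 bp from the TSS of ZNF469, a zinc-finger gene. The third, chr2:4402130-4402604, had 27 and 34 reads and a fold of 9.25 and 16.3, lay 510616 bp from the TSS of DCDC2C, which encodes a doublecortin-domain protein, and carried the perfect match printed above.

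The fourth lay in an intron of ZEB1, a repressor of epithelial genes and a driver of epithelial-mesenchymal transition, at chr10:31757115-31757593. It had 27 and 34 reads and a fold of 8.64 and 17.4. The fifth, in an intron of ANTXR1, a receptor for anthrax toxin, at chr2:69387178-69387496, had 28 and 33 reads and a fold of 8.56 and 14.9. Neither held a CTCF match, since the best match of both had 2 mismatches.

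The sixth, chr2:6493034-6493479, 508964 bp from the TSS of CMPK2, a mitochondrial nucleotide kinase, had 26 and 38 reads and a fold of 6.58 and 9.28. A site near TXNRD1, which encodes a thioredoxin reductase, at chr12:104752227-104752490, had the widest spread of ranks of the 8. Its fold was 12.5 in replicate 1, the highest of any MCF10A-only site in that list, and 8.39 in replicate 2, at ranks of 749 and 13069. The eighth, chr13:105223945-105224386, 894052 bp from the TSS of DAOA, had 27 and 38 reads and a fold of 4.62 and 12.2. Of these 8 leading sites, 3 held a CTCF match.

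**Figure D2:**
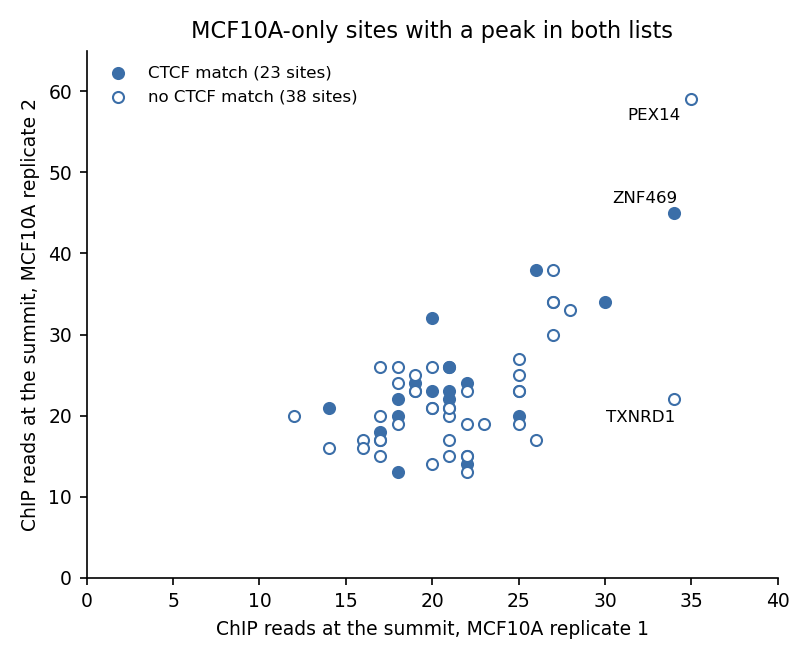
ChIP reads over the summit of each of the 61 MCF10A-only sites called in both lists, replicate 1 (x axis) against replicate 2 (y axis), filled where the site held a CTCF match (23 sites) and open where it did not (38). The PEX14 site, with 35 and 59 reads, stands at the upper right. Counts are not scaled to a common ChIP depth, which was 18.6 M reads in replicate 1 and 11.5 M in replicate 2.

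The sites of 1 list alone were weaker still, with a median fold of 5.43 for replicate 1 and 6.04 for replicate 2. Among those of replicate 1 alone, the strongest was intergenic, chr18:41678717-41679043, 581249 bp from the TSS of SETBP1, with 27 reads and a fold of 8.64. A site near SLC43A1, an amino acid transporter gene, at chr11:57250540-57250798, had 26 reads and 18 CpG in its window. Sites in an intron of COG6, a subunit of a Golgi tethering complex (chr13:40340036-40340315), and near TUBB8B, a tubulin gene (chr18:11665-11902), had 22 reads each. None of these 4 held a match. The other of the 5 strongest held a perfect match and is not described. The NFE2L3 site shown above, chr7:25935053-25935309, had 19 reads and a fold of 7.20.

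Among the sites of replicate 2 alone, an intronic site of KAZN, which encodes kazrin, a protein of epithelial junctions (chr1:14933162-14933489), had 31 reads and a fold of 12.9. An intronic site of MAPT, the gene for the microtubule protein tau (chr17:44026429-44026832), had 35 reads, a fold of 11.3 and 19 CpG in its window, with no CTCF match. The intron of SHB, an adaptor protein gene, held a site with 34 reads and a fold of 10.95 (chr9:37921561-37921859), 17368 bp from the TSS of SLC25A51. An intronic site of USP2, a deubiquitinase gene (chr11:119242453-119242852), had 30 reads, a fold of 11.6 and a G12V peak 1974 bp away. The KAZN and USP2 sites held a match, as did the other of the 5 strongest, which is not described.

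The edge of the rule can be given by distance. The gap from an MCF10A-only site to the nearest G12V peak had a median of 33524 bp, and 33 sites (3.52%) had a G12V peak within 1000 bp. The smallest gap was 100 bp, at a site near CAMK2G (chr10:75579250-75579458). Just outside the rule, the smallest overlap of an MCF10A peak with a G12V peak at a distal site was 105 bp, near LIPK (chr10:90488215-90488583). The lowest −log10 q of a site kept was 2.01 in replicate 1, near CEP57L1, and 1.73 in replicate 2, near SPATA17.

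Sequence was not used to choose the sites, so the share with a CTCF motif could be tested, though the classes compared also differ in the number of lists with a peak. A match was called when a 150 bp window, centred on the summit of the site's strongest peak, held the CTCF core motif of 12 bases, on either strand, with at most 1 mismatch. Of the 937 MCF10A-only sites, 264 (28.2%, 95% exact binomial interval 25.3 to 31.2%) held a match, against 0.640% of windows 2000 bp beside them. The share was 37.7% (25.6 to 51.0%) for the 61 sites of both lists, 28.4% (25.3 to 31.6%) for those of replicate 2 alone and 13.5% (5.59 to 25.8%) for the 52 of replicate 1 alone. All 3 shares were above those of their own flanking windows, at 1.64%, 0.485% and 1.92%, and the intervals of the 3 groups overlapped.

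MCF10A-only sites held the motif less often than shared sites. The constitutive distal sites, those with a peak in all 4 lists, held it at 4640 of 6566 sites (70.7%), a difference of -42.5 percentage points for the MCF10A-only sites (95% interval -45.5 to -39.3, adjusted p = 4.60e-136, exact test). The partly shared sites, with a peak in both cell types but not in every list, held it at 56.8%, a difference of -28.6 points (-31.6 to -25.5, adjusted p = 2.29e-63, exact test). These are two-sided Fisher's exact tests over sites, adjusted by the Benjamini-Hochberg method over 8 tests. They treat sites as the units and carry no error between cultures. By the rule every shared site had peaks in lists of both cell types, while most MCF10A-only sites had a peak in 1 list. Among G12V-only sites the share was 46.2% for those of both lists, against 29.0% and 38.3% for those of replicates 1 and 2 alone. How much of the differences goes with the number of lists was not tested. Both differences kept their direction and passed the test under all 12 alternatives. In 1 of the 12 the motif was scored by base frequencies taken from matches at the constitutive sites. That alternative is not independent of the constitutive class. They were smallest without G12V replicate 2, at -17.9 and -5.79 points against constitutive and partly shared sites, and with lists of equal length were -18.5 and -10.7 points.

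The comparison with G12V-only sites had no settled direction. Here 28.2% stood against 39.0% of 7686 sites, a difference of -10.8 points (-13.8 to -7.64, adjusted p = 1.17e-10, Fisher's exact test). With every list cut to the same length the difference was 3.49 points (adjusted p = 0.0246), and without G12V replicate 2 it was 11.8 points (adjusted p = 7.65e-13, exact tests), both with more motifs at MCF10A-only sites. Taken over libraries, 26.5% and 29.0% of the MCF10A-only sites of replicates 1 and 2 held the motif (mean 27.8%, SD 1.76, n = 2), against 43.2% and 39.2% of the G12V-only sites of G12V replicates 1 and 2 (mean 41.2%, SD 2.81, n = 2). The pairs did not overlap, but an exact two-sided permutation test over the 6 assignments gave p = 0.333, which is the smallest that 2 against 2 libraries allow. The classes were built from the true cell types and not rebuilt for each assignment. The 2 values of a cell type also share sites, 61 in MCF10A and 866 in G12V. Neither the test nor the gap between the pairs therefore measures independent libraries.

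**Figure D3:**
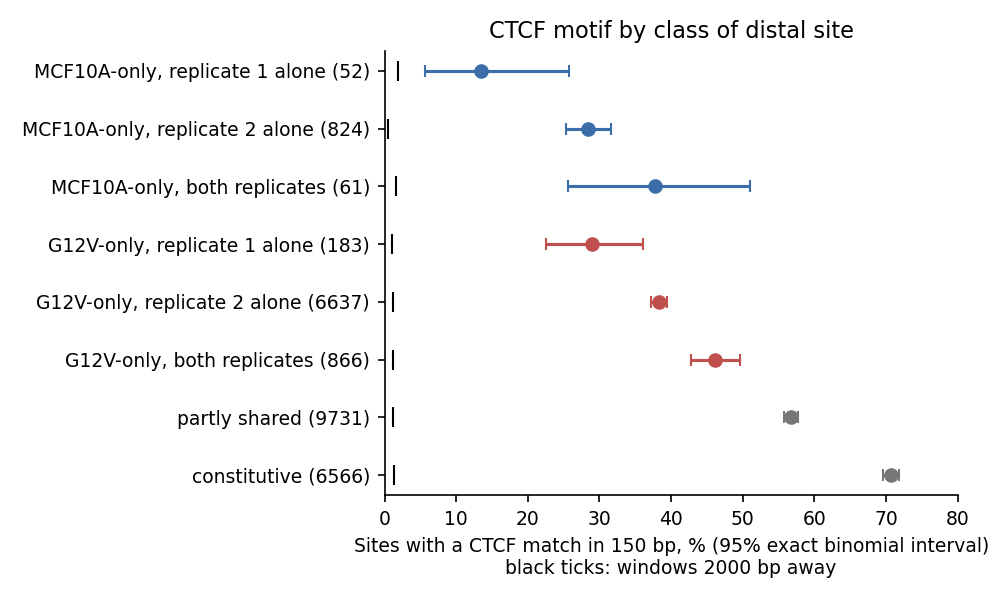
Share of distal sites with a CTCF match (points, x axis in %, with 95% exact binomial intervals) by class, the number of sites in parentheses, and the share in windows 2000 bp away (black ticks). MCF10A-only sites lay between 13.5% and 37.7% and constitutive sites at 70.7%.

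The share of sites with a motif was lower in the weakest than in the strongest quartile of each list, so the comparison was repeated within quartiles of peak strength. In the weakest quartile of replicate 2, the match was found at 176 of 679 MCF10A-only sites (25.9%, 22.7 to 29.4%), at 51.1% of partly shared sites and at 63.2% of constitutive sites. In the third quartile, where 164 of the sites lay, the shares were 37.2%, 54.9% and 69.3%. In the second quartile, 17 of 35 sites held it (48.6%, 31.4 to 66.0%) against 62.7% and 69.2%, and there the interval reached the partly shared sites. The shares at the strongest quartile rest on 7 sites.

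Within strength quartiles the odds of a match at MCF10A-only sites were lower than at the other distal sites of the same list. All of those other sites also had a G12V peak, while 824 of the 885 MCF10A-only sites of replicate 2 had a peak in no other list. The quartiles balance strength in 1 list and not the number of lists with a peak. The motif was read at the summit of a site's strongest peak, which at the other sites could be a stronger G12V peak. The strength of the peak scanned was therefore not balanced. The pooled odds ratio was 0.194 in replicate 1 (n = 113 sites, 95% interval 0.127 to 0.296, adjusted p = 2.31e-16) and 0.342 in replicate 2 (n = 885 sites, 0.293 to 0.398, adjusted p = 1.74e-44) by the Cochran-Mantel-Haenszel test over 4 quartiles. Both stayed below 1 and passed the test in every alternative run, 1 of which took its motif from constitutive sites. Without G12V replicate 2 they were 0.697 and 0.70 in replicates 1 and 2, closer to 1 than in any other alternative. In the weakest quartile of replicate 1, 16 of 76 sites held a match (21.1%, 12.5 to 31.9%), against 57.5% of partly shared sites.

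**Figure D4:**
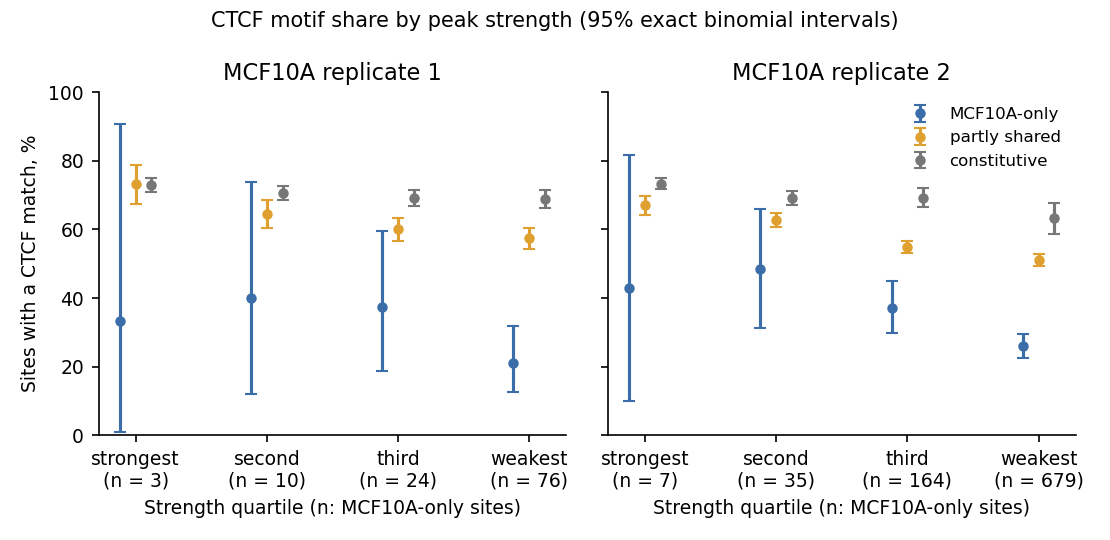
Share of sites with a CTCF match (y axis, %, 95% exact binomial intervals) by strength quartile in MCF10A replicate 1 (left) and 2 (right), for MCF10A-only, partly shared and constitutive distal sites. In the weakest quartile of replicate 2 the shares were 25.9%, 51.1% and 63.2%.

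The matches at MCF10A-only sites were also less exact and less centred than those at constitutive sites, which is given as a description. A perfect match was found at 83 sites (8.86%) and a best match with 1 mismatch at 181 (19.3%), against 28.04% and 42.63% of constitutive sites. These shares are of all sites, with or without a match. Among matches, 83 of 264 were perfect at MCF10A-only sites and 1841 of 4640 at constitutive sites. The counts were 754 of 2995 at G12V-only and 1787 of 5525 at partly shared sites. The most common outcome was a best match with 3 mismatches, at 274 sites (29.2%). In the flanking windows 4 mismatches were the most common, at 44.8%. Where a match was present, its centre lay within 30 bp of the summit at 156 of 264 MCF10A-only sites (59.1%), at 63.4% of G12V-only sites and at 77.8% of constitutive sites. Of the 23 matches at sites of both lists, 20 did so.

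For the motif of AP-1, the FOS and JUN family of factors that act downstream of RAS signalling, no difference from G12V-only sites was detectable. TGACTCA or TGAGTCA, on either strand, occurred at 27 of 937 sites (2.88%), at 2.65% of G12V-only sites and at 2.33% of all 24920 distal sites. The difference from the G12V-only sites was 0.227 points (95% interval -0.745 to 1.55, adjusted p = 0.729, Fisher's exact test). In windows 2000 bp away the share at MCF10A-only sites was 2.13%. All 27 matches were at sites of replicate 2 alone, which were 824 of the 937. Without G12V replicate 2 the difference was 1.56 points and passed the test (adjusted p = 0.00376, exact test).

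MCF10A-only sites fell in genes about as often as between them, and the median site was farther from a TSS than in the other classes. Of the 937 summits, 395 (42.2%) were in an intron and 43 (4.59%) in an exon of a protein-coding gene, and 499 (53.3%) were intergenic. The share in gene bodies, 46.7%, differed by -0.653 points from that of G12V-only sites (-4.02 to 2.74, adjusted p = 0.729) and by 3.04 points from that of constitutive sites (-0.360 to 6.45, adjusted p = 0.113, Fisher's exact tests). The second difference passed the test when promoters were drawn as 5000 bp to each side (5.22 points, adjusted p = 0.0062) and when all annotated genes counted (5.44 points, adjusted p = 0.00215, Fisher's exact tests). The median distance to a protein-coding TSS was 32987 bp, against 25501 bp for G12V-only, 19793 bp for partly shared and 15492 bp for constitutive sites, and 280 sites (29.9%) lay over 100 kb away. For the 61 MCF10A-only sites of both lists the median was 25215 bp, close to that of G12V-only sites. For those of replicates 1 and 2 alone it was 40349 and 32964 bp. A TSS of a non-coding gene was near 45 sites (4.80%) by the same promoter definition.

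Position along the genome was not used to choose the sites either. The share of MCF10A-only sites on a chromosome differed from that of the other distal sites with an MCF10A peak on 1 of 23 chromosomes (4.35%) by Fisher's exact test. Chromosome 19, which is rich in genes, held 18 MCF10A-only sites (1.92%) against 3.93% of the others (adjusted p = 0.0252, exact test). The largest share in the other direction that passed an unadjusted test was on chromosome 2, with 91 sites (9.71%) against 7.42% (adjusted p = 0.0745, exact test). The number of chromosomes past the threshold ran from 0 to 13 over the alternatives, and no chromosome passed when promoters reached 5000 bp either side, when a peak was needed in both lists or without MCF10A replicate 2. It was 13 without G12V replicate 2. At an unadjusted p of 0.05, 8 chromosomes passed.

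The 937 sites were spread over 834 nearest genes, of which 747 had 1 site, 73 had 2, 12 had 3 and 2 had 4. DCDC2C and SORCS1, which encodes a sorting receptor of neurons, had 4 each. These were 4 of the 9 distal sites assigned to DCDC2C and 4 of the 13 assigned to SORCS1. Among all 24920 distal sites, 937 were MCF10A-only. The genes named here and below were picked for having the most MCF10A-only sites. Whether the sites cluster at these genes was not tested. The 4 MCF10A-only sites of DCDC2C spanned chr2:3832810-4811046 and included the site of both lists described above. Their fold in replicate 2 was 6.46, 6.43, 16.3 and 11.4 in order along the chromosome. Of the 4, 3 held a CTCF match. The 4 MCF10A-only sites of SORCS1 spanned chr10:107692284-109964454, had a fold of 4.30 to 8.58 in replicate 2 alone and held no CTCF match.

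Of the 12 genes with 3 sites, the first 6 by name were BRINP3, CNTN6, CRIM1, DPP6, MACROD2 and MRPL39. At CNTN6, a neuronal adhesion protein gene, 3 of the 4 distal sites assigned to it were MCF10A-only, with a fold of 6.21, 7.16 and 4.30 in replicate 2. At MACROD2, 3 of 4 were, all in introns, with a fold of 10.5, 6.78 and 5.96. Elsewhere the counts were 3 of 11 at BRINP3, 3 of 13 at CRIM1, 3 of 7 at DPP6 and 3 of 6 at MRPL39. DPP6, which encodes a subunit of potassium channels, had 2 of its 3 sites in both MCF10A lists, with a fold of 7.30 and 3.65 at the first and 5.73 and 6.99 at the second in replicates 1 and 2.

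Lists of genes tied to the tissue or the oncogene had few MCF10A-only sites within 100 kb of a TSS. No site lay near the 14 genes of CTCF, cohesin and their loaders, which had 52 distal sites of any class (0.209% of all distal sites). The 25 basal epithelial keratin and adhesion genes had 4 sites near 3 genes (0.427% of the sites, against 0.437% of all distal sites). They included one 1096 bp from a TSS of CDH1, the gene for E-cadherin, in an intron, with 22 reads and a fold of 5.48. Another lay 14151 bp from KRT5, the basal keratin gene, with 20 reads, a fold of 7.73 and a CTCF match, and the last of the 3 genes was DST, which encodes a hemidesmosome protein (fold 5.09). All of these came from MCF10A replicate 2 alone.

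The 23 genes of epithelial-mesenchymal transition had 2 sites, at CDH1 and at ZEB1 as above. Of the 19 feedback regulators of RAS-MAPK signalling, SPRED2, an inhibitor of the pathway, was the gene behind both sites of the list. One lay in an intron 5111 bp from its TSS, with a fold of 7.45 in replicate 2, and the other 69454 bp away, in an intron with ACTR2 as the gene of the nearest TSS, with a fold of 8.69. The 16 AP-1 family genes had 2, in the exon of JUN 1546 bp from a TSS (fold 4.45, 13 reads) and 97681 bp from FOSL2 (fold 7.27). The shares were 0.213% of the sites for each of these 3 lists, against 0.289%, 0.241% and 0.225% of all distal sites.

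The 21 imprinted genes, where CTCF is known to act as an allele-specific insulator, had 7 sites near 6 genes (0.747%, against 0.245% of all distal sites). The nearest were 2 sites at GRB10, a growth factor receptor adaptor, 2445 and 8802 bp from a TSS, with a fold of 5.83 and 4.45, and 1 in an intron of IGF2R, the receptor that clears IGF2, with a fold of 5.72. All 3 came from replicate 2 alone and rested on 13 to 19 reads. The 24 established p53 target genes had 2 sites, at BTG2 and in an intron of XPC, a DNA repair gene (fold 6.07). These were 0.213% of the sites, against 0.349% of all distal sites.

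Few MCF10A-only sites overlapped a p53 peak. There were 4 (0.427%, 0.116 to 1.09%), against 0.117% of G12V-only, 0.288% of partly shared and 0.411% of constitutive sites. The 4 overlapped 3, 1, 2 and 4 peaks in the p53 lists of MCF10A replicates 1 and 2 and G12V replicates 1 and 2 in turn, and all 4 had their CTCF peak in MCF10A replicate 2 alone. At 3 of the 4, p53 peaks were called in both cell types, and the FMNL2 site had 1 in G12V replicate 2 alone. None of the 4 held a CTCF match.

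The strongest was intergenic, chr9:86853603-86853857, 101861 bp from the TSS of SLC28A3, a nucleoside transporter gene. Its p53 fold was 21.5 and 16.8 in MCF10A replicates 1 and 2 and 13.4 and 42.9 in G12V replicates 1 and 2, among the first 92 peaks of every p53 list, while its CTCF fold was 7.55 on 15 reads. The p53 summits lay 90 to 134 bp from the CTCF summit and the 150 bp around them held a full p53 motif, a pair of half-sites with intact core bases, with 1 mismatch. At BTG2, an antiproliferative p53 target, the site in its intron (chr1:203275787-203276121) had a CTCF fold of 5.02 and a p53 fold of 8.47 in MCF10A replicate 1, with 5.95 and 15.0 in G12V replicates 1 and 2. The sites near ANKRD33B (chr5:10528686-10528942) and in an intron of FMNL2, a formin gene (chr2:153322631-153322880), had a p53 fold of 17.9 and 4.71 in G12V replicate 2. The ANKRD33B site also had a p53 peak in MCF10A replicate 1, with a fold of 11.6. Around the p53 summits, the best p53 motif had 1 mismatch at ANKRD33B, 3 at BTG2 and 5 at FMNL2. At most 3 mismatches were allowed for a match. The FMNL2 peak, at rank 2521 of 2619, was near the end of that p53 list.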

How the data were processed

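The 8 ChIP samples, of 16 in the series, each had 1 peak list. Per the study's methods the authors aligned reads to hg19 with Bowtie, kept unique ones and ran MACS2 with its defaults, which keep a q-value of 5%, on each library against an input. Versions for the ChIP-seq steps are not given in the sources used here. The study combined replicates, but each deposited list came from 1 library. The deposited lists give a score, a fold (a ratio of pileup to background), −log10 p and −log10 q. Depth and summit reads were solved from fold and p for at least 99.99% of the peaks of a list, taking 2.7 Gb of mappable genome, and scripts were tested on simulated data. Genes came from GENCODE release 44 and sequences from the reference genome, both on GRCh37.

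Fisher's exact and Cochran-Mantel-Haenszel tests compared shares of sites, and an exact permutation test compared libraries (scipy 1.17.1, statsmodels 0.14.6). Intervals of differences are Newcombe's. Alternatives changed the q threshold, list lengths, merging, promoter, motif, gene set and libraries. The members, gene lists and tests were chosen with earlier results of these data known. Sites named were the 8 leading of both lists, the 5 strongest of each list alone, those at p53 peaks, the 8 genes with most sites (3 or more) and up to 3 genes per list. Of these, 2 sites on chromosome 8 are not reported here. The NFE2L3 site is the strongest of replicate 1 alone with a match among the rest.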

Additional observations from a re-analysis of the deposited data

How the results depend on the processing

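The motif share stayed lower at MCF10A-only sites than at constitutive and partly shared sites under all 12 alternatives run. Within strength quartiles of each MCF10A list it was also lower. So it was with 20 strength strata, an alternative chosen after seeing the data (odds ratios 0.197 and 0.375). Among the alternatives, 1 took its motif from the constitutive sites and is not independent of that class. Leaving out 1 library gave 113 to 8337 sites, 0 to 13 chromosomes and 0 to 21 sites with a p53 peak. It gave differences from G12V-only sites of -18.3 to 11.8 points for the CTCF motif, -2.65 to 1.56 for the AP-1 motif and -2.86 to 0.0833 for gene bodies, and of -22.1 to 15.7 between libraries. Without G12V replicate 2 both CTCF differences turned to 11.8 and 15.7 points, and the AP-1 difference of 1.56 passed the test, while without MCF10A replicate 2 the AP-1 and gene body differences turned to -2.65 and 0.0833. Lists of equal length gave 2185 sites, 6 chromosomes and CTCF differences of 3.49 points over sites and 3.37 between libraries. A peak in both lists left 61 sites, 0 chromosomes and 0 p53 overlaps, with differences of -8.48 points for the CTCF motif, no longer past the test, and -1.62 for AP-1. No mismatch allowed gave -0.952 points against G12V-only sites, also not past the test. A promoter of 5000 bp either side gave 0 chromosomes and gene body differences of 0.0851 points from G12V-only and 5.22 from constitutive sites, and all genes gave 1.14 and 5.44. The −log10 q minimum of 3 gave 2 chromosomes. The cause of these changes was not tested.

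With the replicate block, in which libraries of the same number are paired, the differences were -16.6 and -10.2 points for replicates 1 and 2, with a mean of -13.4 points (exact sign-flip p = 0.5, the smallest that 2 pairs allow). The deviations of same-numbered libraries at 6566 constitutive sites had a correlation of 0.0497, and the labels do not say that a number marks a shared batch.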

Other observations

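CpG content was higher at the MCF10A-only sites called in both lists than at those of replicate 2 alone. These values were picked after they were seen and are given as a description, with no test. Of the 61 MCF10A-only sites of both lists, 12 had 10 or more CpG in the 150 bp around the summit (19.7%, 95% exact binomial interval 10.6 to 31.8%), and 4 of the 12 held a CTCF match. The PEX14 site, with 13, was one of them. Of the 52 MCF10A-only sites of replicate 1 alone, 3 had that content (5.77%, 1.21 to 15.95%), an interval that overlapped that of the 61 sites. The constitutive share given below lay within the interval of the 61 sites. The same content was found at 30 of 866 G12V-only sites of both lists (3.46%, 2.35 to 4.91%), at 27 of 824 MCF10A-only sites of replicate 2 alone (3.28%, 2.17 to 4.73%) and at 888 of 6566 constitutive sites (13.5%, 12.7 to 14.4%). The mean number of CpG was 5.54 (SD over sites 5.26) at the 61 sites, 3.08 at G12V-only sites of both lists and 4.99 at constitutive sites, and in windows 2000 bp away from the 61 sites it was 2.08.

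A CpG within the CTCF match itself was present in 8 of the 264 matches at MCF10A-only sites (3.03%, 1.32 to 5.88%), in 128 of 2995 at G12V-only sites (4.27%, 3.58 to 5.06%), in 305 of 5525 at partly shared sites (5.52%, 4.93 to 6.16%) and in 462 of 4640 at constitutive sites (9.96%, 9.11 to 10.8%). At sites of both lists the counts were 2 of 23 for MCF10A-only (8.70%, 1.07 to 28.04%) and 23 of 400 for G12V-only (5.75%, 3.68 to 8.50%). The interval of all MCF10A-only matches overlapped that of the partly shared sites and lay below that of the constitutive sites. The motif definition limits these shares. The 12 bases of the motif as defined allow no CpG, so a perfect match never counted. A CpG was present only where the 1 allowed mismatch created it. Perfect matches stayed in the totals, at 83 of the 264 MCF10A-only and 1841 of the 4640 constitutive matches. The shares do not measure how often sites bound by CTCF hold a CpG in the motif. Whether methylation of the CpG within matches differed between the cells was not measured by these libraries.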
